A study of Mus musculus with 9 samples.

Results

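Nr4a1, Nr4a2, Nr4a3, Arc, Npas4, Ier2, Dusp1, Dusp6, Nptx2 and Btg2 are 10 genes that neurons switch on when they fire, and they were taken by name from the hippocampal RNA-seq of a mouse model of Alzheimer disease. All 10 were found among the 55471 genes of the count table, 33175 of which had at least 1 count, and all 10 were among the 17396 genes that passed the filter on low counts. Each of 3 groups of 9-month-old female mice gave 3 libraries of hippocampal RNA, 9 in all. The first group, WT vehicle, was C57BL/6J given a blank solvent by mouth 4 times a week. The second, 3xTg vehicle, carried the APPSwe and tauP301L transgenes by its labels and had the same solvent, and the third, 3xTg LP-10d, was of that line and had 10 mg/kg of the compound LP-10d by mouth 4 times a week for 1 month. The design asks what the genotype does and what the compound does within it. In this line the APP and tau transgenes are driven by a Thy1 cassette, which acts in neurons. The wild-type mice are a C57BL/6J strain and the labels do not give the strain background of the 3xTg mice, so strain and engineered alleles cannot be told apart. The labels do not say that the 3 libraries of a group came from separate animals, and the p-values cover only how far these libraries spread, which may be technical.

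When a neuron fires, calcium enters through NMDA receptors and voltage-gated channels, and kinases carry the signal to factors such as CREB, SRF and MEF2 that sit on DNA before the stimulus. Immediate-early genes are then transcribed within minutes, without new protein, and their transcripts are lost again quickly, so their level at death reflects recent activity. In the hippocampus this programme is needed for long-term memory: Arc shapes synapses, the NR4A receptors and NPAS4 act on further genes, and the DUSP phosphatases shut the kinase signal off.

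The promoters of the members are shown because the CREB site, the cAMP response element, is the best known route from calcium to them. Several of these genes varied together across libraries, and the part of this site in that was not tested. The windows are from RefSeq on GRCm38.p6 (mm10), from 250 bases before to 50 after the start site, and 7 of the 10 members had one: Arc, Ier2 and Nptx2 had none in the table. The 3 NR4A paralogues, Npas4 and Dusp1 are printed 5′ to 3′ on the gene's own strand, with capitals marking the 5-base core TGACG of the cAMP response element on either strand (read as CGTCA on the other strand) and the full TGACGTCA. They lie at chr15:101266596-101266895 (plus strand), chr2:57123954-57124253 (minus strand), chr4:48045055-48045354 (plus strand), chr19:4989922-4990221 (minus strand) and chr17:26508423-26508722 (minus strand).
Nr4a1: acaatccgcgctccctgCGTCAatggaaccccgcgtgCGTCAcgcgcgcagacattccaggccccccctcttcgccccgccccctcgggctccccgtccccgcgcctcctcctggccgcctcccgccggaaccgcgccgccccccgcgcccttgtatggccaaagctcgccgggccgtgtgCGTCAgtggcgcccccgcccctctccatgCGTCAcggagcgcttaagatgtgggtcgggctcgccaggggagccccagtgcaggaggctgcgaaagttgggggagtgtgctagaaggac
Nr4a2: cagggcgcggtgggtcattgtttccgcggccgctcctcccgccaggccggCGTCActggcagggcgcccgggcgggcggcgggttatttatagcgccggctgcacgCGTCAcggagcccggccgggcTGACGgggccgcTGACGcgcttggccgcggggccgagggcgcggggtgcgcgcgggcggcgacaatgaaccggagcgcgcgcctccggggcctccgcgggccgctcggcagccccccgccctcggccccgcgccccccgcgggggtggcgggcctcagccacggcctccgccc
Nr4a3: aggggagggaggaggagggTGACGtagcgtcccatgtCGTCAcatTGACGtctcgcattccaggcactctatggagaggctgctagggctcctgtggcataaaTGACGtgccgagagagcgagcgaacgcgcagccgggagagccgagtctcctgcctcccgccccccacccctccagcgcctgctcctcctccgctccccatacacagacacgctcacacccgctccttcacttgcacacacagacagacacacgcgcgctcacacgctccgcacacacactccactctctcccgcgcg
Npas4: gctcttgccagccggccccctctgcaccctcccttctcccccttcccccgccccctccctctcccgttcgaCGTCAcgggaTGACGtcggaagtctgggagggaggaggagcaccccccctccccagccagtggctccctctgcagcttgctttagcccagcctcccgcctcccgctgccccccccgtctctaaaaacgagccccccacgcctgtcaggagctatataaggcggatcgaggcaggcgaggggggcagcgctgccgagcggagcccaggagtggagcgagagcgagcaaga
Dusp1: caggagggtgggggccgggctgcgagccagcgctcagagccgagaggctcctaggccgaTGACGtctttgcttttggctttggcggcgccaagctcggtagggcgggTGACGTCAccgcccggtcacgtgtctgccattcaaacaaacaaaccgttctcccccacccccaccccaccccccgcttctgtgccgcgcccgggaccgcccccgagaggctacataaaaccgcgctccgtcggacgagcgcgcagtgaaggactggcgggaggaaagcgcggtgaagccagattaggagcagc

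The core TGACG stood in 6 of the 7 member windows, against 20.8% of all 32851 promoter windows of the table and 28.7% of the 15828 windows of tested genes. The members' windows were rich in G and C, from 57.3% in Dusp6 to 81.7% in Nr4a2, and among the 11998 windows with at least 57.3% G and C the core stood in 31.0%. Each NR4A window held 4 cores, Npas4 held 2, and Dusp6 held none. The full TGACGTCA, which contains the core on both strands, stood in 2 of 7: in Dusp1 from -143 to -136 and in Btg2 from -166 to -159, counted with the start site as 0. Of all windows 1.79% held it, and of those at or above the GC limit 3.07%. None of the 7 windows held an exact match to the CArG box of SRF (CC, 6 bases of A or T, GG) or the AP-1 site (TGACTCA or TGAGTCA). Nor did any hold the NBRE bound by NR4A receptors (AAAGGTCA) or the NPAS4 core TCGTG. Over all windows, on both strands, these motifs in that order stood in 1.63%, 5.20%, 1.51% and 16.0%. In the windows at or above the GC limit they stood in 1.15%, 2.98%, 0.625% and 21.8%. TATAAA was found in the Nr4a2 window only among the 7, on the opposite strand, in 13.6% of all windows and in 3.72% of those at or above the GC limit. These are exact letter matches in a short window and say nothing of binding, and near matches were not sought.

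**Figure D1:**
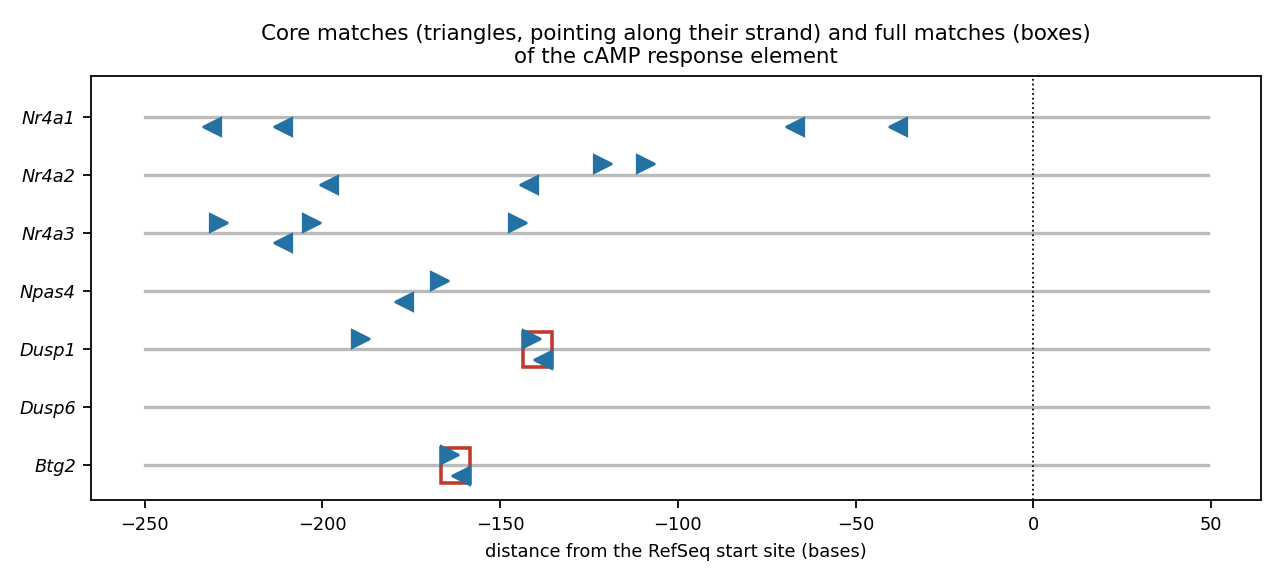
Position of each core (triangle, pointing along its strand) and full match (red box) of the cAMP response element in the 7 promoter windows, with distance from the RefSeq start site in bases on the x axis. The full matches are in Dusp1 and Btg2, and Dusp6 has neither.

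The members were compact genes. In the GENCODE M21 annotation (mm10) they had 1 to 8 exons, with a median of 4.5, against a median of 9 over 14671 tested coding genes, and all 10 lay under that median. Their spans ran from 1522 bp in Ier2, which has 1 exon, to 56539 bp in Dusp1, and 8 of 10 were under the median span of 25218 bp. Arc spans chr15:74669083-74672570 with 3 exons, Nr4a1 chr15:101254269-101274795 with 8, Nr4a3 chr4:48045153-48086447 with 8 and Nptx2 chr5:144545902-144557478 with 5. The pentamer ATTTA, part of the AU-rich elements that mark short-lived messages, occurred 5 times in the 3′ UTR of Nr4a3 and of Btg2, 4 times in that of Dusp1 and not in those of Arc and Ier2. The members' median was 2.5 against 1 over the tested coding genes, with a median 3′ UTR of 1136.5 bases against 954. The annotated span of Dusp1 (chr17:26505590-26562128) overlaps the start of Ergic1, at chr17:26561489, on the opposite strand. The RefSeq window of Dusp1 printed above, chr17:26508423-26508722, lies inside that span near its other end, away from the overlap. Ergic1 had 24004 counts over the 9 libraries and Dusp1 4716, and whether reads were counted by strand is not known here, so a part of the Dusp1 counts is uncertain.

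The libraries held 16582086 to 19170969 counts, and mitochondrial transcripts took 2.28% to 2.86% in 8 of them and 5.04% in WT vehicle replicate 3. Hippocampal markers were present in all 9: Prox1, the dentate granule cell factor, stood at 46.5 to 130.0 CPM (counts scaled to equal library size). Summed choroid plexus markers, 14 genes with none at 0, ran from 232 to 6366 CPM in WT, 193 to 1550 in 3xTg vehicle and 196 to 4003 on LP-10d, with 14 of 14 lower in 3xTg vehicle than in WT. Within WT, replicate 1 held 232 CPM of them and replicate 2 held 6366 CPM. In these 2 libraries Arc stood at 261 and 295 CPM, Nr4a3 at 127 and 81.6, and Nptx2 at 42.4 and 29.3. The part of choroid plexus in the members' levels was not tested. The 14 thalamus and striatum markers summed to 1455 CPM in 3xTg vehicle replicate 2, where Drd2 stood at 79.7 CPM. Elsewhere the sum ran from 208 to 426 CPM, with the top value in WT vehicle replicate 3. Tcf7l2, a thalamus marker, peaked in that WT library: 54.3 CPM, beside 5.54 and 6.03 CPM for WT replicates 1 and 2. For 3xTg vehicle replicate 2 the Tcf7l2 level came to 26.6 CPM. Drd2 in WT replicate 3, 8.84 CPM, lay between the 5.71 and 9.60 CPM of the other WT libraries. The part of such tissue in the members' levels was not tested. App and Mapt counts overlapped between WT and 3xTg libraries, so they did not check the genotype labels.

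Per transcript length, Arc was the most abundant member in wild-type hippocampus at 88.7 ± 9.08 FPKM (SD, n = 3). Nr4a1 followed at 44.1 ± 3.66 FPKM, with ranges that did not meet those of Arc. Dusp6 (20.1 ± 2.02), Nr4a3 (18.7 ± 4.04), Nr4a2 (14.6 ± 2.30) and Nptx2 (13.7 ± 2.27 FPKM) came next, and the ranges of neighbours among these overlapped. Dusp1 (9.38 ± 2.31), Ier2 (7.06 ± 1.10), Btg2 (5.77 ± 1.43) and Npas4 (5.74 ± 1.44 FPKM) were the lowest, and among them too the ranges of neighbours overlapped. In 3xTg mice on vehicle Arc was still first, at a mean of 63.0 FPKM, and on LP-10d it stood at 43.9 FPKM. Nptx2, at a mean of 19.6 FPKM in 3xTg vehicle, was there below Arc and Nr4a1 only, where in wild type it was below 5 members.

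**Figure D2:**
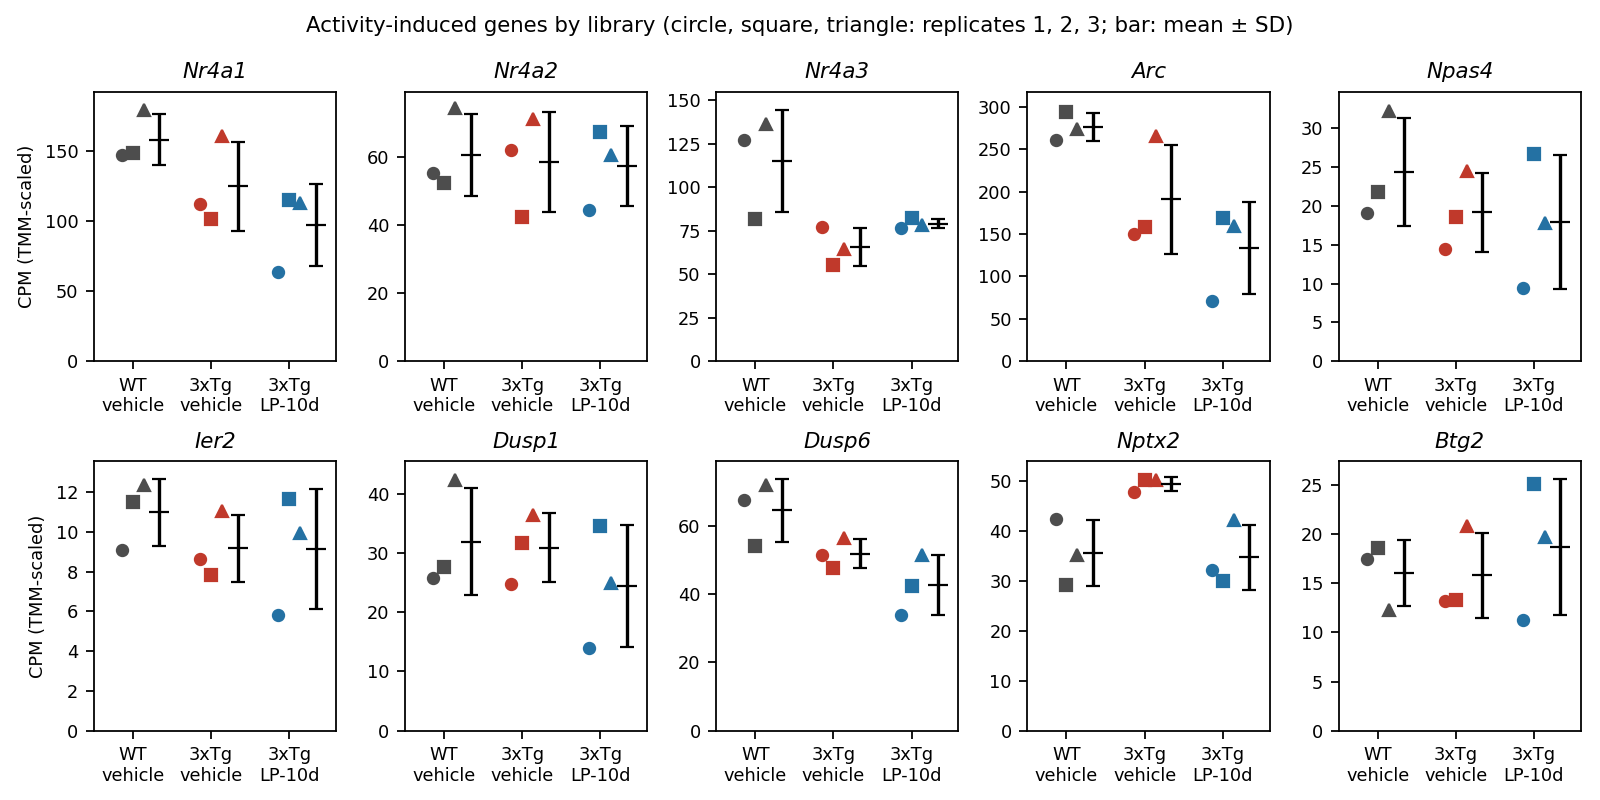
CPM of each member in every library (points; circle, square and triangle for replicates 1, 2 and 3) with the group mean (tick) and SD (whisker), WT vehicle, 3xTg vehicle and 3xTg LP-10d, 3 libraries each. Nr4a3 is separated between WT and 3xTg vehicle, Nptx2 between 3xTg vehicle and both other groups, and Arc, Nr4a1 and Dusp6 between WT and LP-10d.

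Between 3xTg vehicle and WT vehicle, 9 of the 10 members had a lower fitted level in the 3xTg mice, and only Nptx2 had a higher one (7 of 10 lower when scaled by total counts, where Dusp1 and Btg2 stood at 0.00 and 0.01). The median log2 fold change of the members was -0.29, against 0.00 over all 17396 genes, 49.8% of which were below 0. None of the members had an adjusted p under 0.05 (edgeR's quasi-likelihood test, adjusted by Benjamini-Hochberg over all genes), a threshold that 0.00575% of all genes passed (1 gene). At an unadjusted p under 0.05 there were 1 lower member, Nr4a3, and 1 higher, Nptx2, against 7.08% and 7.00% of all genes. These 2 were also the members whose groups did not overlap, with 7.99% of all genes apart and lower and 9.38% apart and higher. DESeq2 called 2.19% of genes, 351 of 16028, and 1 member, Nr4a3. With 3xTg vehicle replicate 2 and WT vehicle replicate 3 both left out, a choice made after the data were seen, the median was -0.08 with 7 of 10 lower. Without one of the 2 at a time the median was -0.19 in both cases, with 7 of 10 lower.

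Between LP-10d and 3xTg vehicle, 8 of 10 members had a lower fitted level on the compound, with a median of -0.19, and 50.1% of all genes were below 0. No gene passed the threshold in edgeR (percent called 0) and no member in DESeq2, which called 0.00575% of genes (1 gene). At an unadjusted p under 0.05 there was 1 lower member, Nptx2, against 1.95% of all genes, and no higher one, against 0.948%. Nptx2 was also the 1 member apart and lower, against 5.81%, and none was apart and higher, against 5.82%. The number of lower members depended on single libraries. Without LP-10d replicate 1 the median was 0.04 and 5 of 10 were lower, and without 3xTg vehicle replicate 3 it was -0.01, again with 5 of 10 lower.

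Between LP-10d and WT vehicle, 9 of 10 members had a lower fitted level, Btg2 being the exception, with a median of -0.41 (8 of 10 when scaled by total counts, where Nptx2 stood at 0.01), while 50.5% of all genes were below 0. Again no gene passed the threshold in edgeR (percent called 0), and DESeq2 called 0.275% of genes and no member. At an unadjusted p under 0.05 there were 4 lower members, Arc, Dusp6, Nr4a1 and Nr4a3, against 4.67% of all genes, and no higher one, against 4.08%. The groups were apart for 3 of them, Arc, Dusp6 and Nr4a1, against 6.89% of all genes apart and lower, and for no member on the higher side, against 7.49%. Without LP-10d replicate 1 the median was -0.12 with 7 of 10 lower, and without WT vehicle replicate 3 it was -0.18. The 3 comparisons share their groups, so their values are given side by side and are not independent of each other.

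**Figure D3:**
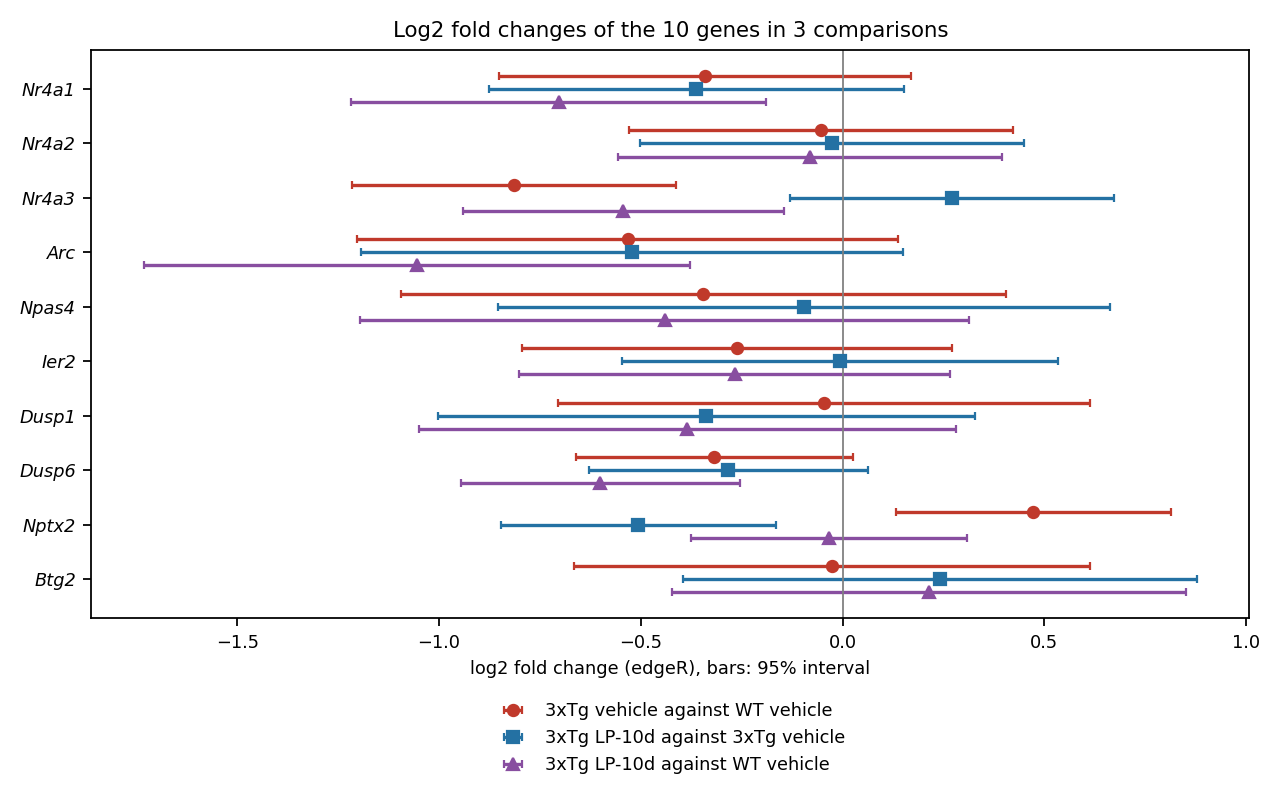
log2 fold change of each member in the 3 comparisons, from edgeR, with 95% intervals. The intervals exclude 0 for Nr4a3 and Nptx2 in 3xTg vehicle against WT, for Nptx2 in LP-10d against 3xTg vehicle, and for Arc, Nr4a1, Dusp6 and Nr4a3 in LP-10d against WT, and none of these passed the adjusted threshold.

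NR4A receptors are nuclear receptors that act without a known hormone and are induced within minutes by calcium and cAMP. Nr4a3 (NOR1) had the clearest difference by genotype. It stood at 127, 81.6 and 136 CPM in WT vehicle replicates 1 to 3, at 77.0, 55.1 and 64.3 CPM in 3xTg vehicle, and at 76.7, 82.0 and 78.2 CPM on LP-10d. Every 3xTg vehicle library lay below every WT library, and the 3 LP-10d libraries lay close together at the level of the lowest WT library. The mean in 3xTg vehicle was 0.569 of WT (65.4 ± 11.0 against 115 ± 29.3 CPM, SD, n = 3), a log2 fold change of -0.81 ± 0.18 (SE) with a 95% interval from -1.21 to -0.41. Its adjusted p was 0.119 in edgeR (unadjusted 0.00108) and 0.00313 in DESeq2. Without WT vehicle replicate 2 the log2 fold change was -1.01 with an edgeR adjusted p of 0.0432. It was -0.68 without WT vehicle replicate 3. Over all alternatives it ran from -1.01 to -0.57, and the adjusted p from 0.00313 to 0.415. On LP-10d Nr4a3 was 0.27 ± 0.18 log2 units from 3xTg vehicle, interval -0.13 to 0.67, and overlapping by its ranges, with 0.16 without 3xTg vehicle replicate 2 and 0.41 without 3xTg vehicle replicate 1. Against WT the value was -0.54 ± 0.18, with an unadjusted p of 0.0126 and an edgeR adjusted p of 0.548.

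Nr4a1 (NUR77) stood at 147, 149 and 179 CPM in WT, at 112, 101 and 161 in 3xTg vehicle, and at 63.5, 115 and 113 on LP-10d. 3xTg vehicle replicate 3 lay inside the WT range and the other 2 below it. All 3 LP-10d libraries lay below all 3 WT libraries, with replicate 1 the lowest of the 9. Against WT the log2 fold change was -0.34 ± 0.23 in 3xTg vehicle (interval -0.85 to 0.17) and -0.70 ± 0.23 on LP-10d (interval -1.22 to -0.19, edgeR adjusted p 0.548). LP-10d against 3xTg vehicle gave -0.36 ± 0.23, and -0.13 without LP-10d replicate 1 or -0.14 without 3xTg vehicle replicate 3. The difference between 3xTg vehicle and WT was -0.21 without 3xTg vehicle replicate 2 and -0.57 without 3xTg vehicle replicate 3.

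Nr4a2 (NURR1), also a factor that specifies midbrain dopamine neurons, had the smallest fitted differences of the 3. It stood at 55.5, 52.4 and 74.6 CPM in WT, at 62.1, 42.3 and 71.2 in 3xTg vehicle, and at 44.5, 67.5 and 60.5 on LP-10d, so all 3 groups overlapped. Its log2 fold changes were -0.05 ± 0.21, -0.03 ± 0.21 and -0.08 ± 0.21, in 3xTg vehicle against WT, LP-10d against 3xTg vehicle and LP-10d against WT. The first interval ran from -0.53 to 0.42. With 3xTg vehicle replicate 2 and WT vehicle replicate 3 both left out that value was 0.30. Each of the 3 values changed sign with single libraries left out: they reached 0.13 without 3xTg vehicle replicate 2, 0.14 with replicate 3 of that group left out and 0.09 without WT vehicle replicate 3.

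Npas4 encodes a transcription factor induced in neurons by calcium alone, and it acts on inhibitory synapses. It stood at 19.1, 21.7 and 32.3 CPM in WT, at 14.5, 18.6 and 24.6 in 3xTg vehicle and at 9.42, 26.7 and 17.8 on LP-10d. The groups overlapped, and LP-10d held both the lowest and one of the highest libraries. The log2 fold changes were -0.35 ± 0.34, -0.10 ± 0.34 and -0.44 ± 0.34 in the same order, with intervals that all included 0. Without LP-10d replicate 1 the value against 3xTg vehicle was 0.21 and that against WT -0.13, and without LP-10d replicate 2 they were -0.49 and -0.84. Without WT vehicle replicate 3 the levels in 3xTg vehicle and on LP-10d were -0.10 and -0.19 from WT, and the first was -0.18 without 3xTg vehicle replicate 1.

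Arc, which works at synapses by helping take AMPA receptors back into the cell, was the most abundant member. It stood at 261, 295 and 274 CPM in WT, at 150.0, 158 and 265 in 3xTg vehicle and at 70.8, 169 and 160.1 on LP-10d. In the 3xTg vehicle group 1 library lay at the WT level and 2 far below it, and on LP-10d all 3 lay below every WT library. The mean on LP-10d was 0.482 of WT (133 ± 54.1 against 276 ± 17.0 CPM), a log2 fold change of -1.05 ± 0.30 (interval -1.73 to -0.38, unadjusted p 0.00596, edgeR adjusted p 0.527, DESeq2 adjusted p 0.0772). Without LP-10d replicate 1 it was -0.75. For 3xTg vehicle against WT it was -0.53 ± 0.30 (interval -1.20 to 0.14), -0.84 without 3xTg vehicle replicate 3 and -0.39 without 3xTg vehicle replicate 1. For LP-10d against 3xTg vehicle it was -0.52 ± 0.30 (interval -1.19 to 0.15), and -0.22 without LP-10d replicate 1 and -0.21 without 3xTg vehicle replicate 3.

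Ier2 and Btg2 are rapidly induced regulators, Ier2 a nuclear protein and Btg2 an antiproliferative protein that promotes shortening of mRNA tails. Ier2 stood at 9.08, 11.5 and 12.3 CPM in WT, at 8.63, 7.83 and 11.1 in 3xTg vehicle and at 5.81, 11.7 and 9.93 on LP-10d. Btg2 stood at 17.4, 18.6 and 12.2 CPM in WT, at 13.2, 13.3 and 20.8 in 3xTg vehicle and at 11.3, 25.1 and 19.6 on LP-10d. All groups of both genes overlapped. Their log2 fold changes against WT in 3xTg vehicle were -0.26 ± 0.24 for Ier2 and -0.03 ± 0.29 for Btg2. Against 3xTg vehicle, LP-10d gave -0.01 ± 0.24 for Ier2 and 0.24 ± 0.29 for Btg2, and the Btg2 level on LP-10d was 0.21 ± 0.29 from WT. Against WT, LP-10d gave -0.27 ± 0.24 for Ier2. The Ier2 values against 3xTg vehicle and WT were 0.24 and -0.03 without LP-10d replicate 1, and without LP-10d replicate 2 they were -0.22 and -0.48. The Btg2 values were 0.50 and 0.48 without LP-10d replicate 1, and below 0, at -0.03 and -0.06, without LP-10d replicate 2. The Btg2 difference between 3xTg vehicle and WT ran from -0.28 without 3xTg vehicle replicate 3 to 0.09 without WT vehicle replicate 2.

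Dusp1 and Dusp6 encode phosphatases that switch MAP kinases off: Dusp6 acts on ERK in the cytoplasm and Dusp1, in the nucleus, also on p38 and JNK. Dusp6 stood at 67.6, 54.2 and 72.0 CPM in WT, at 51.4, 47.7 and 56.3 in 3xTg vehicle and at 33.9, 42.4 and 51.4 on LP-10d. Neighbouring groups overlapped, and every LP-10d library lay below every WT library. For LP-10d against WT the log2 fold change was -0.60 ± 0.16 (interval -0.95 to -0.26, unadjusted p 0.00305, edgeR adjusted p 0.516, DESeq2 adjusted p 0.0929). The other 2 values were -0.32 ± 0.15 for 3xTg vehicle against WT (interval -0.66 to 0.03) and -0.28 ± 0.16 for LP-10d against 3xTg vehicle (interval -0.63 to 0.06), the latter at -0.14 without LP-10d replicate 1 and -0.44 without LP-10d replicate 3. Dusp1 stood at 25.8, 27.7 and 42.3 CPM in WT, at 24.7, 31.6 and 36.3 in 3xTg vehicle and at 13.9, 34.5 and 24.9 on LP-10d. Its groups overlapped, with log2 fold changes of -0.05 ± 0.30, -0.34 ± 0.30 and -0.38 ± 0.30 in the order used above. Without WT vehicle replicate 3 the first of them was 0.20 and the last -0.13. The values against 3xTg vehicle and WT were -0.06 and -0.10 without LP-10d replicate 1, and without LP-10d replicate 2 they were -0.67 and -0.71.

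Nptx2 encodes neuronal pentraxin 2, a secreted protein that gathers AMPA receptors on inhibitory neurons and is induced later than the others. It was the 1 member with its groups apart and higher in 3xTg vehicle than in WT. It was at 42.4, 29.3 and 35.2 CPM in WT, at 47.9, 50.2 and 50.3 in 3xTg vehicle and at 32.2, 29.9 and 42.2 on LP-10d. The 3xTg vehicle libraries were the 3 highest of the 9, above all libraries of both other groups. The mean was 1.39 times that of WT (49.4 ± 1.35 against 35.6 ± 6.59 CPM), a log2 fold change of 0.47 ± 0.15 (interval 0.13 to 0.81, unadjusted p 0.0111, edgeR adjusted p 0.245, DESeq2 adjusted p 0.130). On LP-10d it was 0.704 of 3xTg vehicle, a log2 fold change of -0.51 ± 0.15 (interval -0.85 to -0.17, unadjusted p 0.00773, edgeR adjusted p 1.00), at rank 54 of 17396 genes by p. LP-10d and WT differed by -0.03 ± 0.15 with an interval from -0.37 to 0.31. The 10 neocortex markers also had a higher fitted level in 3xTg vehicle than in WT, 10 of 10, with sums of 377 to 440 CPM in WT, 519 to 687 in 3xTg vehicle and 464 to 568 on LP-10d, and none of them was at 0. Of 10 GABAergic neuron markers, none at 0, 9 were higher in 3xTg vehicle than in WT, with sums of 921 to 979.9 CPM in WT, 1035 to 1199 in 3xTg vehicle and 938 to 1108 on LP-10d. Of 10 oligodendrocyte markers, none at 0, 8 were lower, with sums of 7303 to 7807, 5267 to 6611 and 6121 to 8125 CPM. Of 7 blood markers, none at 0, the 6 tested were all higher in 3xTg vehicle than in WT, with sums of 33.6 to 77.7, 106 to 178 and 72.9 to 115 CPM. The part of these markers in the Nptx2 difference was not tested.

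Across the 9 libraries most members varied together, and the level of the whole set depended on the library. In LP-10d replicate 1, 7 of 10 members had their lowest value of the 9 libraries, and the mean log2 deviation from each gene's mean was -0.70. In WT vehicle replicate 3, 7 of 10 had their highest value, with a mean deviation of 0.38. The other LP-10d libraries stood at 0.10 and -0.02, and 3xTg vehicle replicate 3, at 0.26, lay above WT vehicle replicates 1 and 2 at 0.17 and 0.10. LP-10d replicate 1 also had the highest sum of the 10 oligodendrocyte markers, 8125 CPM against 5267 to 7807 elsewhere, with 17435331 counts and a mitochondrial share of 2.47%, both inside the range of the others. Dentate gyrus markers, 12 genes with none at 0, summed to 626 to 839 CPM in WT, 462 to 606 in 3xTg vehicle and 500.4 to 607 on LP-10d, with 10 of 12 lower in 3xTg vehicle than in WT. The part of these cell types in the members' levels was not tested, and in whole tissue fewer cells of a type and less RNA per cell cannot be told apart.

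**Figure D4:**
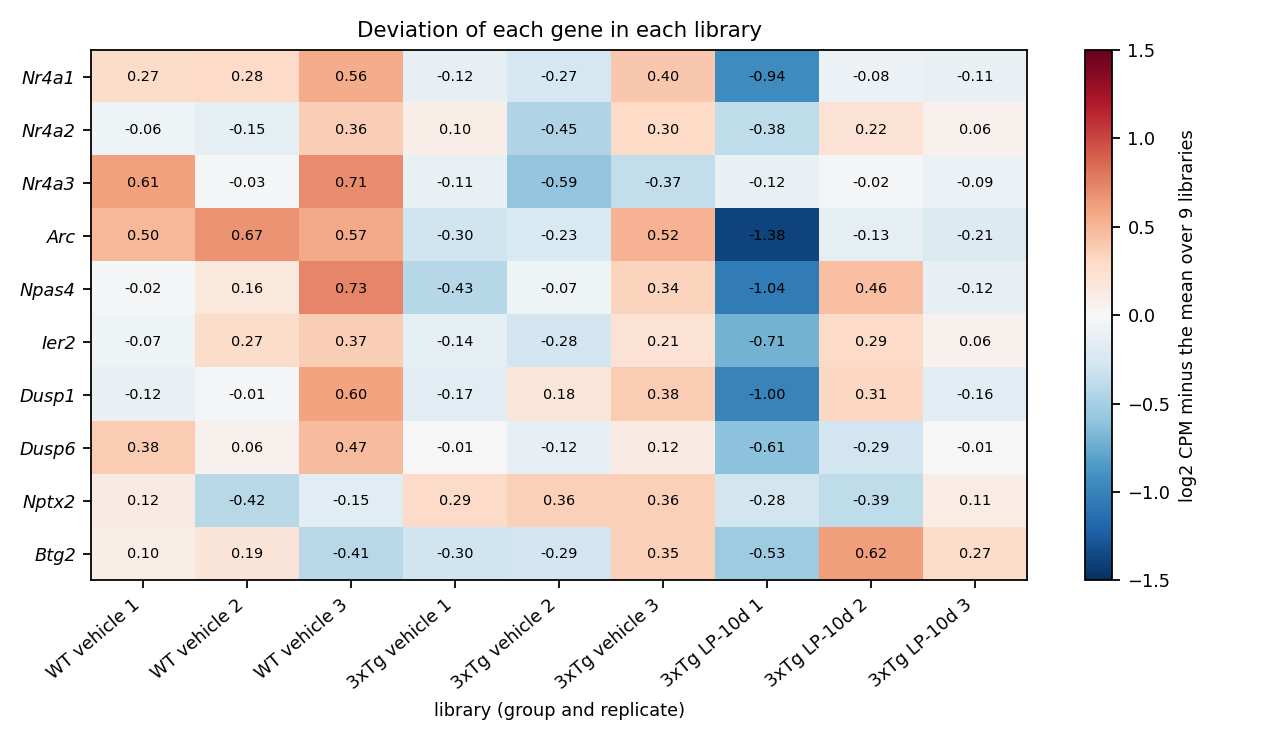
log2 CPM of each member (rows) in each library (columns) minus that gene's mean over the 9 libraries, red above and blue below the mean. LP-10d replicate 1 is blue in all 10 rows, WT vehicle replicate 3 is red in 8 rows, and Nptx2 is red in all 3 columns of 3xTg vehicle.

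Of the 45 pairs of members, 23 had a Pearson correlation of log2 CPM above 0.5 over the 9 libraries and 5 were below 0, with a median of 0.53. With each group's mean removed the median was 0.63, and without LP-10d replicate 1 it was 0.36. In an exact two-sided permutation test of the 9 libraries, 12 of 45 pairs had a Benjamini-Hochberg adjusted p under 0.05. The same shares among pairs of other genes were not computed. Whether the members varied together more than other genes is therefore not known here. Nr4a1 and Arc were the closest pair, with r = 0.97 (exact permutation p 0.000708, adjusted 0.00977) and Spearman rho = 0.93 (exact permutation p 0.000750, adjusted 0.0169). Their r was 0.95 without the 2 libraries farthest from the median and 0.94 with group means removed. Npas4 and Dusp1 had r = 0.95 (exact permutation p 0.000223, adjusted 0.00977) and rho = 0.93 (exact permutation p 0.000750, adjusted 0.0169), and r was 0.81 without the 2 farthest libraries and 0.99 with group means removed. Nr4a3 had weaker relations with its paralogues, a difference that was not tested. With Nr4a1 its r was 0.46 (exact permutation p 0.208, adjusted 0.374) and rho 0.57 (exact permutation p 0.121, adjusted 0.289), and r was 0.39 without the 2 farthest libraries and 0.23 with group means removed. With Nr4a2 its r was 0.42 (exact permutation p 0.261, adjusted 0.430) and rho 0.45 (exact permutation p 0.230, adjusted 0.369). That r was 0.02 without the 2 farthest libraries and 0.58 with group means removed. Its highest r with any member was 0.61. For Nptx2 the highest r with any member was 0.27, with Dusp6, and with Nr4a3 it was -0.36. With group means removed these 2 values were 0.68 and 0.40. These tests take libraries of different groups as exchangeable, and no pair with Nr4a3 or Nptx2 had an adjusted p under 0.05.

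**Figure D5:**
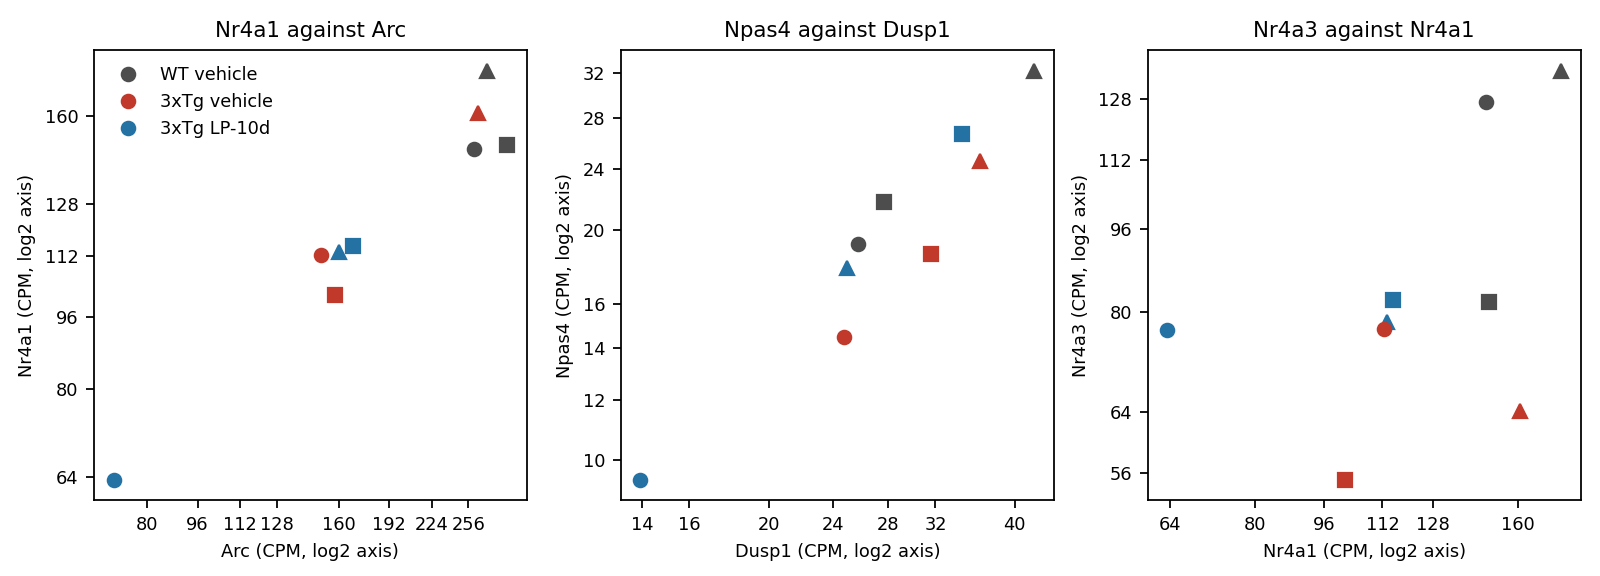
CPM of Nr4a1 against Arc, Npas4 against Dusp1 and Nr4a3 against Nr4a1 in the 9 libraries, on log2 axes, coloured by group, with circle, square and triangle for replicates 1, 2 and 3. The first 2 pairs lie along a line that LP-10d replicate 1 ends at the bottom, and in the last the 3xTg vehicle libraries lie at or below 77.0 CPM of Nr4a3 while Nr4a1 runs from 101 to 161 CPM.

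The genes most like the members were ranked by Pearson r of log2 CPM over the 9 libraries among 15447 genes with a mean of at least 1 CPM, as a description with no test. The mean of the members was followed most closely by Gm30177 (r = 0.97), Zmat5 (0.95), Rad52 (0.95), Dclre1b (0.95), Fos (0.94), Gm15635 (0.93), Gm37844 (0.90) and Ky (0.90). Arc was most like Nfil3 (0.97), Fos (0.95) and Junb (0.94), Nr4a1 most like Gm30177 (0.98), Ky (0.96) and Zmat5 (0.96), and Nr4a3 most like Golm1 (0.99), Kctd6 (0.99) and Shisa6 (0.98). Npas4 and Dusp1 shared Dele1 as their closest gene (0.97 and 0.94), and Nptx2 had Pde8b (0.97) and Pcsk2 (0.94).

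The members belong to a larger programme, and 7 further lists held its other genes, none of them a member. Of 11 EGR and AP-1 factors 9 were tested, and none was called by edgeR in any comparison: at an unadjusted p under 0.05 there were 1, 4 and 6, all lower, in 3xTg vehicle against WT, LP-10d against 3xTg vehicle and LP-10d against WT, beside 7.08%, 1.95% and 4.67% of all genes. DESeq2 called 0, 0 and 2 of them, beside 2.19%, 0.00575% and 0.275% of all genes. In 3xTg vehicle against WT 8 of 9 had a lower fitted level, median -0.25, with Egr4 at 34.9 ± 1.08 against 43.1 ± 1.59 CPM and groups apart. With WT vehicle replicate 3 left out that median was -0.14, and with 3xTg vehicle replicate 1 left out it was -0.11. It was -0.05, with 6 of 9 lower, with 3xTg vehicle replicate 2 and WT vehicle replicate 3 both left out. On LP-10d against 3xTg vehicle 6 of 9 were lower, median -0.35, and the groups were apart for 4, Egr1, Egr3, Egr4 and Fosb, beside 5.81% of all genes apart and lower. Egr1 stood at 134 ± 29.5 CPM on LP-10d, at 216 ± 51.1 in 3xTg vehicle and at 257 ± 109 in WT. On LP-10d against WT 8 of 9 were lower, median -0.53, with 6 apart, beside 6.89% of all genes, among them Fos at 11.9 ± 6.48 against 21.6 ± 2.93 CPM.

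Among 30 other rapid activity genes the fitted level was lower for 16 in 3xTg vehicle against WT (median -0.05), for 25 on LP-10d against 3xTg vehicle (median -0.20) and for 21 on LP-10d against WT (median -0.18). Klf10 stood at 21.4 ± 1.19 CPM on LP-10d and 30.6 ± 2.33 in 3xTg vehicle, with groups apart. Without LP-10d replicate 1 the count against 3xTg vehicle was 20, with a median of -0.12, and that against WT was 17, with a median of -0.02. The median in 3xTg vehicle against WT was 0.03 when WT vehicle replicate 2 was left out and 0.04 when 3xTg vehicle replicate 1 was, each with 14 of 30 lower. Of 25 late effectors, which include secreted peptides and channels, 10, 16 and 14 were lower (medians 0.10, -0.14 and -0.11). These medians were 0.02 without WT vehicle replicate 2, -0.08 without LP-10d replicate 2 and -0.02 without WT vehicle replicate 3. In this list Kcnj4, a potassium channel, stood at 143 ± 14.5 CPM in 3xTg vehicle and 84.6 ± 17.2 in WT, and Nptx1, the paralogue of Nptx2, at 686 ± 91.4 against 973 ± 165, so the 2 pentraxins had fitted changes of opposite sign.

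The 39 genes that carry the signal from synapse to nucleus had 27, 26 and 24 lower (medians -0.12, -0.03 and -0.15), the first and last being -0.04 and -0.05 without WT vehicle replicate 3. Mef2c, one of the factors that act on activity genes, had the smallest p of that list, at 189 ± 27.9 CPM in 3xTg vehicle against 99.0 ± 18.6 in WT (log2 fold change 0.93 ± 0.17, edgeR adjusted p 0.0936), and 129.7 ± 23.7 on LP-10d. Of 18 other ERK phosphatases and feedback genes 9, 13 and 9 were lower, with Spry1 at 8.85 ± 0.356 CPM in 3xTg vehicle against 13.6 ± 1.83 in WT. Among 22 partners and paralogues the counts were 12, 11 and 12, with Gria1, an AMPA receptor subunit, at 879 ± 141 CPM in 3xTg vehicle against 1241 ± 177 in WT. Of the 15 tested glucocorticoid response genes, which handling stress can raise, 10, 12 and 13 were lower, with Per1 at 119 ± 8.55 CPM on LP-10d, 149 ± 12.9 in 3xTg vehicle and 167 ± 18.2 in WT. No gene of these 6 lists was called by edgeR in any of the 3 comparisons. At an unadjusted p under 0.05, 7.08%, 1.95% and 4.67% of all genes were lower in the 3 comparisons, and 7.00%, 0.948% and 4.08% higher. Of the 30 rapid, 25 late, 39 signalling, 18 feedback, 22 partner and 15 glucocorticoid genes, 5, 5, 6, 2, 5 and 3 were lower in 3xTg vehicle against WT. In LP-10d against 3xTg vehicle 3, 3, 1, 1, 0 and 2 were lower, and in LP-10d against WT 11, 3, 9, 4, 6 and 4. The higher counts in these comparisons were 3, 6, 4, 2, 2 and 1, then 0, 1, 0, 0, 0 and 0, then 1, 4, 2, 0, 1 and 0. These counts are descriptions, and no list was tested against the other genes. DESeq2 called 1 of the 30 rapid genes, 4 of the late effectors, 4 signalling genes, 1 feedback gene, 2 partners and 0 glucocorticoid genes in 3xTg vehicle against WT, where it called 2.19% of all genes. It called 0 in each list in LP-10d against 3xTg vehicle (0.00575% of all genes), and 1, 1, 1, 1, 0 and 2 in LP-10d against WT (0.275%).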

How the data were processed

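RNA of the mouse hippocampus (300 ng, TRIzol with an RNeasy step and an MGIEasy library kit, per the labels' protocols) was sequenced in 9 libraries. The deposited tables hold whole-number counts per gene and FPKM values (fragments per kilobase of transcript, scaled to library depth) of the authors, made on the mm10 build according to the submitters' processing notes. Which aligner and counter were used, and with which strand option, is not given in the sources. The gene length implied by the deposited counts, FPKM and library totals was the same in every library to a relative deviation of 2.45e-14. No 2 libraries of a group agreed within sampling noise.

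The members, gene lists and tests were chosen with earlier results of these data known. Counts of all 9 libraries were fitted in 1 model with edgeR 4.0.16 in R 4.3.3 (quasi-likelihood, TMM scaling, filterByExpr), leaving 17396 genes. P-values were adjusted by Benjamini-Hochberg over all of them with a threshold of 0.05. Intervals are 95% and use each gene's own SE from the fit. The common biological coefficient of variation was 0.157. CPM were TMM-scaled. All 10 members were named, with up to 3 genes of each list by smallest unadjusted p, of which the text gives a selection, and the 8 and 3 genes most like the members' mean and each member. Two-sided exact permutations tested the 45 member pairs. The code was tested on simulated counts. Alternatives were DESeq2 1.42.0, limma 3.58.1 (voom, and trend on log2(FPKM + 0.1) or log2(FPKM + 1)), other scaling and filters, a replicate block and leaving out libraries. With 3 libraries against 3, an exact permutation test of 1 gene cannot go below p = 0.1, so none was run per gene. A further allele of the 3xTg line is not reported here.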

Additional observations from a re-analysis of the deposited data

How the results depend on the processing

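Over 21 alternatives for each comparison, the members' median log2 fold change stayed below 0 in 3xTg vehicle against WT (-0.40 to -0.08) and in LP-10d against WT (-0.58 to -0.12), and in LP-10d against 3xTg vehicle in 20 of 21 (-0.34 to 0.04). The number of genes called in 3xTg vehicle against WT was 1 in the reported fit, 351 with DESeq2, 3 without a filter on low counts, 3 with limma-trend on log2(FPKM + 0.1), 2 on log2(FPKM + 1), and 0 to 11 when 1 library was left out. DESeq2 called 1 gene in LP-10d against 3xTg vehicle and 46 in LP-10d against WT, where leaving out 1 library gave 0 to 2. The number of members called in 3xTg vehicle against WT was 1 with DESeq2 and 0 to 1 with 1 library left out, in each case Nr4a3 (-0.82 and -1.01), and 0 in the other alternatives. Members lower in LP-10d against 3xTg vehicle ran from 5 to 9 with 1 library left out. With the replicate number as a block, the genes called were 1, 0 and 0, no member was called, and the medians were -0.28, -0.22 and -0.46 in the order 3xTg vehicle against WT, LP-10d against 3xTg vehicle and LP-10d against WT. The numbers did not pair the libraries: 4 of 9 same-numbered pairs had a correlation of deviations above 0.1 (range -0.19 to 0.37), and 2 of 9 libraries matched their own number best. The causes of these differences were not tested. With 3 libraries a group the precision is limited: for Ier2, the member with the fewest counts per library on average, the interval in 3xTg vehicle against WT ran from -0.79 to 0.27.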
